A study of Mus musculus with 40 samples.

Results

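The 10 genes described here carry lipoprotein lipase and the uptake of the fatty acids that it releases: *Lpl*, *Lmf1*, *Gpihbp1*, *Angptl4*, *Cd36*, *Slc27a1*, *Slc27a2*, *Fabp3*, *Fabp4* and *Fabp5*. They were taken by gene symbol, as a set defined by function, from the 20295 genes counted in brown adipose tissue (BAT) of 40 male mice, and all 10 had enough counts to be among the 13277 genes tested. In the first cohort, C-3BO mice carried a lox-STOP-lox *Gpr3* transgene under the CAG promoter in Rosa26 that *Ucp1*-Cre switches on in every cell that has made UCP1, and their control littermates lacked either the Cre or the transgene. In the second cohort, control littermates of mice with an inducible form of the same transgene, labelled Wildtype, were injected daily for 9 days with CL-316,243 (CL), an agonist of the β3-adrenergic receptor, at 1 mg/kg or with saline. Each of the 4 arms (control, C-3BO, saline, CL) was kept at 29 °C, which is thermoneutral for mice, and was split into mice fed chow and mice fed a high-fat diet (HFD) with 60 kcal% fat for 7 days, giving 8 groups of 5 mice. Mice were 13 to 19 weeks old in the first cohort and 15 weeks old in the second.

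Lipoprotein lipase is made by adipocytes, among other cells, and frees fatty acids from the triglycerides of chylomicrons and very-low-density lipoproteins inside capillaries. LMF1 lets the enzyme mature in the endoplasmic reticulum, GPIHBP1 carries it across the capillary endothelium and holds it there, and ANGPTL4 inactivates it. The freed fatty acids enter the adipocyte with the help of CD36 and of the acyl-CoA synthetases FATP1 (*Slc27a1*) and FATP2 (*Slc27a2*), and are bound in the cytosol by the fatty acid binding proteins. Brown fat uses this route to fuel heat production and to refill its lipid droplets, and cold raises lipoprotein lipase activity in it.

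Read counts per gene were put on the CPM scale, a gene's count relative to its library's total after TMM scaling, and divided by exon length in kilobases (RPKM) wherever the level of one gene is compared with that of another. Sums over marker genes, and the share of *Gpihbp1* in such a sum, stayed in CPM without length correction. The test was the quasi-likelihood test of edgeR, and a gene is said to have risen or fallen where its p-value, adjusted by Benjamini and Hochberg over the 13277 genes, was under 0.05. Library totals lay between 849126 and 15260516 counts, and no library held fewer than 22 counts of a member. *Gpr3* was measured at 266 to 463 CPM in chow C-3BO mice, at 688 to 918 CPM in HFD C-3BO mice and at no more than 0.744 CPM in their controls, as labelled. Its level in C-3BO mice thus also differed with the diet. The part of this difference in the diet results of C-3BO mice was not tested. In the injected mice, labelled Wildtype, *Gpr3* was at most 1.18 CPM except in chow CL replicate 3, with 99 counts (9.15 CPM). Calls of members that change without this library are named below. *Ucp1*, which marks brown adipocytes, was present at 1116 CPM or more in every library. A set of 12 libraries stood apart, namely the 10 from injected mice on HFD and, from HFD C-3BO mice, replicates 4 and 5. They had *Alb*, a liver transcript, at 62.2 to 294 CPM and counts of *Lcn8*, an epididymal transcript, against at most 1.62 CPM of *Alb* and no *Lcn8* in the other 28. The 12 were also shallower, with totals of 849126 to 7284129 counts against 7349348 to 15260516 in the other 28. In the injected cohort these features and the diet cannot be told apart. Replicate 5 of chow CL mice had *Ucp1* at 1644 CPM, inside the range of chow saline mice (1267 to 1865), whereas the other 4 chow CL mice had 5943 CPM or more. Replicate 4 of HFD control mice had *Ucp1* at 9442 CPM, against 2573 to 5255 CPM in the other HFD control mice.

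By length-corrected level, *Fabp4* led all counted genes with a median of 12593 RPKM over the 40 libraries, and *Lpl* came 32nd with 1276 RPKM. *Cd36* had a median of 702 RPKM, *Fabp3* 398, *Angptl4* 267, *Slc27a1* 130, *Gpihbp1* 109 and *Slc27a2* 102 RPKM. *Lmf1* and *Fabp5* were the lowest of the 10, at 34.1 and 32.2 RPKM. Together the members took between 1.22% and 2.46% of a library's counts.

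In mm9, the build of the counts, *Lpl* (NM_008509) lies at chr8:71404454-71430831 on the plus strand, *Gpihbp1* (NM_026730) at chr15:75427088-75428643 on the plus strand and *Angptl4* (NM_020581) at chr17:33911845-33918520 on the minus strand. *Fabp4* (NM_024406, chr3:10204343-10208576, minus strand) and *Fabp5* (NM_001272097, chr3:10012585-10016610, plus strand) both lie on chromosome 3, and *Slc27a1* (NM_011977) shares chromosome 8 with *Lpl*. All values are sums over exons, and no other listed gene overlaps a member. Whether reads were counted by strand, and how reads that match more than 1 place were treated, is not given in the sources used here, so that reads shared with processed pseudogenes of the binding proteins could not be separated.

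The promoters of 3 members are shown because these genes moved in different ways below: *Slc27a2* with C-3BO, *Fabp3* with C-3BO and the diet, and *Cd36* with the diet. Of the 10 members, 5 had a promoter in the RefSeq table (GRCm38.p6). The windows hold the 250 bases before a start listed there, written 5′ to 3′ on the gene's strand. They lie at chr2:126552774-126553023 (plus) for *Slc27a2*, chr4:130308488-130308737 (plus) for *Fabp3* and chr5:17835897-17836146 (minus) for *Cd36*. A gene can have several listed starts, and whether these are the starts of the counted transcripts was not checked. Below, start means the listed start. Capitals mark exact matches to TGACG, the core of the cAMP response element, to AGGTCA, a hexamer that nuclear receptors bind and whose reverse complement is TGACCT, or to the CCAAT box, searched on both strands.
Slc27a2: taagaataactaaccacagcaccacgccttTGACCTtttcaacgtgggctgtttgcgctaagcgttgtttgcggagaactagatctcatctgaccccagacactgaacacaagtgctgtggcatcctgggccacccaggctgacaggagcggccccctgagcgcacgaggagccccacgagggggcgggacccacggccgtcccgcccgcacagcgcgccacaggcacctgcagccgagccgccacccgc
Fabp3: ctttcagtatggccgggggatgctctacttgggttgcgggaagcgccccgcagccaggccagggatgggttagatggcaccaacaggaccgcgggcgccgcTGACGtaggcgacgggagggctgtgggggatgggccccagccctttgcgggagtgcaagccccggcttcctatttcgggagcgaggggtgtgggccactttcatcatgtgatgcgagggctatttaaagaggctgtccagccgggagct
Cd36: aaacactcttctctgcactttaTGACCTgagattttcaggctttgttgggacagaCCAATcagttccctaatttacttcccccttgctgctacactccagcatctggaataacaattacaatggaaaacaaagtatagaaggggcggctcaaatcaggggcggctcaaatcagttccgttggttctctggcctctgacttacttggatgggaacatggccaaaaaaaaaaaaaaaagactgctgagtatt
AGGTCA began 220 bases before the start of *Slc27a2* and 228 bases before that of *Cd36*, each time as its reverse complement, and 14.0% of the 32851 promoter windows in the table hold it. TGACG began 149 bases before the start of *Fabp3*, and 17.8% of windows hold it. The CCAAT box of *Cd36* began 195 bases before the start, and 33.8% of windows hold one. The full element TGACGTCA (1.55% of windows), the direct repeat of AGGTCA known as DR1 (0.0335%) and the octamer ATTTGCAT (1.60%) were in none of these 3 windows; TGACG overlaps the full element in sequence. These matches are descriptions of letters, not of binding.

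With C-3BO on chow 3 members rose and 3 fell, and of all tested genes 15.8% rose and 15.9% fell. On HFD again 3 rose and 3 fell, beside 19.3% and 15.5% of all genes. CL raised 3 members and lowered 1 on chow, where 9.16% of all genes rose and 6.13% fell, and raised 3 and lowered 1 on HFD, where 12.7% rose and 10.8% fell. *Lpl* rose in 3 of these 4 comparisons, *Angptl4* and *Gpihbp1* fell in 3 each, and *Cd36* did not pass in any. The median log2 fold change of the 10 members was 0.24 for C-3BO on chow, 0.097 for C-3BO on HFD, 0.105 for CL on chow and 0.18 for CL on HFD, against -0.03, -0.017, -0.0052 and -0.010 over all tested genes. The members were chosen with earlier results of these data known, so these counts and medians are descriptions, not a test of the set.

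**Figure D1:**
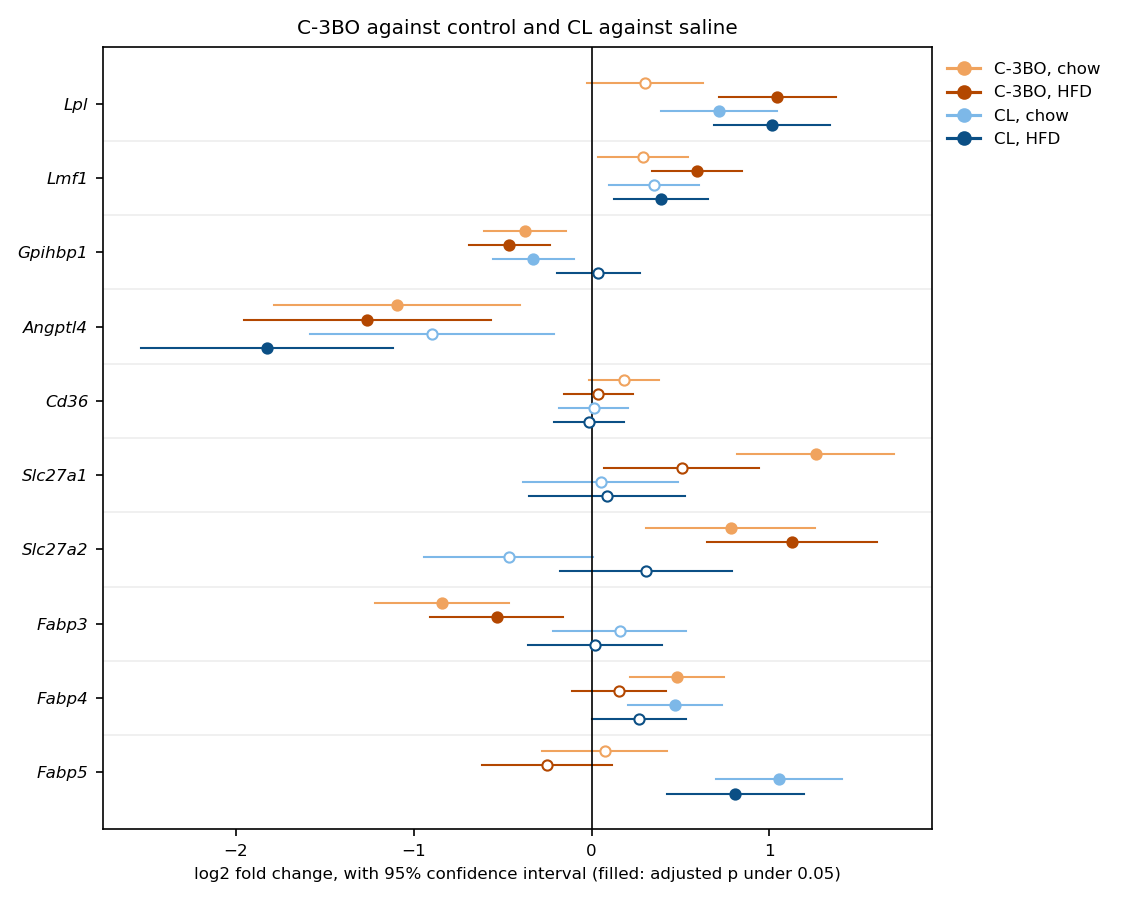
Log2 fold change of each member (rows) with its 95% confidence interval for C-3BO against control and CL against saline on each diet; filled points passed the test over all genes. *Lpl* lies to the right of 0 in all 4 comparisons and *Angptl4* to the left, *Slc27a2* and *Fabp3* passed with C-3BO on both diets, and *Fabp5* with CL on both.

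*Lpl* was about doubled by C-3BO on HFD. The HFD C-3BO libraries held 8462, 8766, 8597, 9609 and 6884 CPM and the HFD control libraries 3736, 3511, 4770, 5253 and 3229 CPM, so that every C-3BO mouse was above every control. The log2 fold change was 1.05 ± 0.16 (SE; 2.06-fold, adjusted p = 3.7e-06, n = 5 per group in edgeR). On chow, C-3BO mice had 5565, 5079, 6068, 6469 and 5418 CPM and control mice 4289, 4004, 4697, 5735 and 4476 CPM. These ranges overlapped, and the log2 fold change of 0.30 ± 0.16 did not pass (adjusted p = 0.151), though it did for *Lpl* with only the 2 groups in the fit (0.31, adjusted p = 0.0490). The difference between the diets was 0.74 ± 0.23 on the log2 scale (95% confidence interval 0.28 to 1.204) and did not pass either in edgeR (adjusted p = 0.0741), but it did pass for *Lpl* in DESeq2 (0.76, adjusted p = 0.0258), when scaled by library totals alone (0.78, adjusted p = 0.0384) and without HFD control replicate 4 (0.83, adjusted p = 0.0339).

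CL raised *Lpl* on both diets. On HFD, CL mice had 9841, 10086, 8076, 6830 and 7234 CPM and saline mice 3630, 4606, 4330, 3404 and 4841 CPM, with no overlap and a log2 fold change of 1.02 ± 0.16 (2.02-fold, adjusted p = 1.29e-05). On chow, 4 CL mice had 7073, 8660, 7183 and 8208 CPM, above all saline mice (4204, 4807, 3272, 4110 and 4869 CPM), while the CL mouse whose *Ucp1* was in the saline range had 3797 CPM. With this mouse the log2 fold change was 0.72 ± 0.16 (1.64-fold, adjusted p = 0.00195), and without it 0.87 (adjusted p = 4.11e-05). The effect of C-3BO on *Lpl* less that of CL was 0.03 on HFD (95% confidence interval -0.43 to 0.49) and -0.41 on chow (-0.87 to 0.05), and neither difference passed. In the order of group means, HFD C-3BO (8464 ± 989 CPM, SD, n = 5) and HFD CL (8413 ± 1487) came first, followed by chow CL (6984 ± 1905), chow C-3BO (5720 ± 550), chow control (4640 ± 663), chow saline (4253 ± 647), HFD saline (4162 ± 621) and HFD control (4100 ± 868). Each neighbouring pair in this order overlapped.

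**Figure D2:**
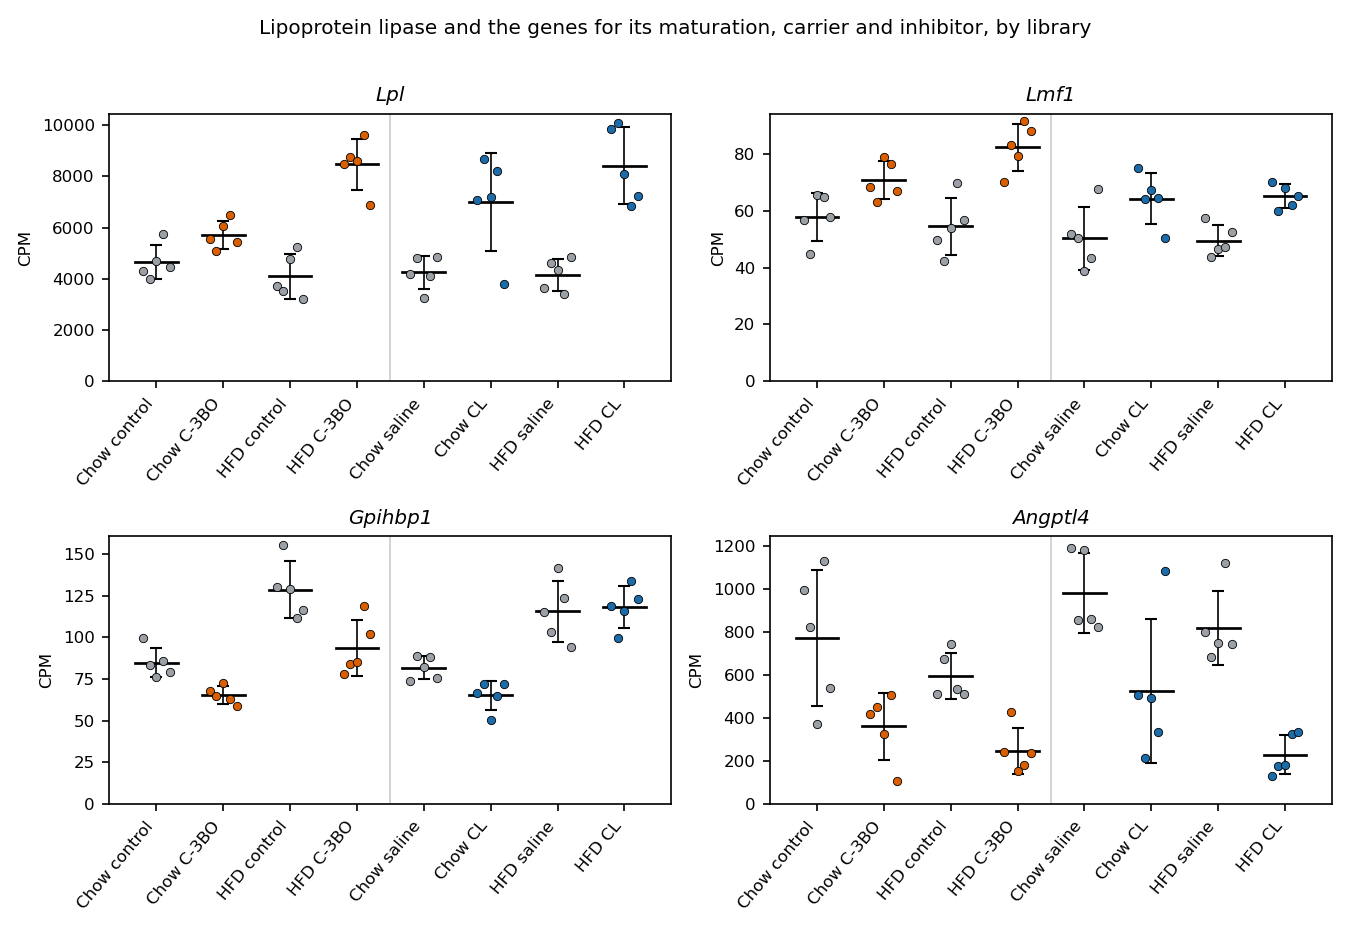
CPM of *Lpl* and of the genes for its maturation factor, carrier and inhibitor in each of the 40 libraries (points), with group mean and SD (bars) and the 2 cohorts parted by a grey line. The 5 HFD C-3BO libraries (6884 to 9609 CPM) and the 5 HFD CL libraries (6830 to 10086 CPM) lie above all untreated libraries for *Lpl*, and 1 chow CL library lies among the saline libraries for *Lpl* and *Angptl4*.

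*Lmf1*, whose product the lipase needs to fold, had log2 fold changes of the same sign as *Lpl* in the C-3BO and CL comparisons. They were close in size with C-3BO on chow (0.29 for *Lmf1*, 0.30 for *Lpl*) and smaller for *Lmf1* in the others. *Lmf1* rose with C-3BO on HFD, from 42.1 to 69.6 CPM in control mice to 70.2 to 91.3 CPM in C-3BO mice, without overlap (log2 fold change 0.59 ± 0.13, adjusted p = 2.94e-04). With CL on HFD the ranges were also apart, 43.8 to 57.3 CPM in saline mice and 59.9 to 70.1 CPM in CL mice (0.39 ± 0.13, adjusted p = 0.0275). That second call was lost with library totals (0.25, adjusted p = 0.147) and when HFD saline replicate 2 or 3 or HFD CL replicate 1 or 3 was left out, with adjusted p up to 0.0879 and log2 fold changes of *Lmf1* from 0.33 to 0.37. On chow *Lmf1* did not pass with C-3BO (0.29 ± 0.13, adjusted p = 0.0757) or with CL (0.35 ± 0.13, adjusted p = 0.0518). The C-3BO value passed without chow control replicate 4 (0.35, adjusted p = 0.0496). The CL value passed without chow CL replicate 5 (0.42, adjusted p = 0.0177) and also without chow saline replicate 5 (0.48, adjusted p = 0.00548).

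*Angptl4*, the inhibitor, moved the opposite way. HFD CL mice had 131, 178, 183, 324 and 334 CPM against 800, 685, 750, 1119 and 742 CPM in HFD saline mice. The groups did not overlap, and the log2 fold change of -1.83 ± 0.35 (3.55-fold lower, adjusted p = 1.79e-04) was the largest of any member in a treatment comparison. With C-3BO on HFD, *Angptl4* was at 240, 428, 155, 180 and 237 CPM against 509, 676, 745, 535 and 509 CPM in control mice, again without overlap (-1.26 ± 0.34, adjusted p = 0.00404). On chow, C-3BO mice had 419, 449, 325, 506 and 107 CPM and control mice 994, 823, 372, 1130 and 539 CPM. These ranges overlapped; the log2 fold change was -1.09 ± 0.34 (adjusted p = 0.0130), and the call was lost without chow control replicate 4 (-0.90, adjusted p = 0.0532).

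Chow CL mice had 506, 214, 493 and 336 CPM of *Angptl4*, below all chow saline mice (1189, 853, 1182, 861 and 823 CPM), apart from replicate 5 at 1084 CPM. With all 5 mice the log2 fold change of -0.90 ± 0.34 did not pass (adjusted p = 0.0673), and without replicate 5 the log2 fold change of *Angptl4* was -1.34 and passed (adjusted p = 0.00470). The CL effect on HFD minus that on chow was -0.93 (95% confidence interval -1.90 to 0.04, adjusted p = 0.556).

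The RPKM ratio of *Lpl* to *Angptl4*, a description, had a median of 2.39 in chow control mice and 6.24 in chow C-3BO mice, and on HFD it was 3.01 in control and 16.6 in C-3BO mice. It was 2.24 in chow saline mice and 6.85 in chow CL mice, and 2.71 in HFD saline mice and 20.7 in HFD CL mice. Over the 20 libraries of the injected cohort, log2 CPM of the 2 genes had a Pearson correlation of -0.94 (Spearman -0.91), and after the group means were taken out it was -0.88, or -0.79 in the 19 libraries without chow CL replicate 5. In the 20 libraries of the C-3BO cohort it was -0.58, and 0.13 after the group means were taken out. Of the other 13276 tested genes, *Angptl4* ranked last by its correlation with *Lpl* in the injected cohort. The libraries of a cohort share treatment groups, and in the injected cohort depth and the liver transcripts differed with diet.

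**Figure D3:**
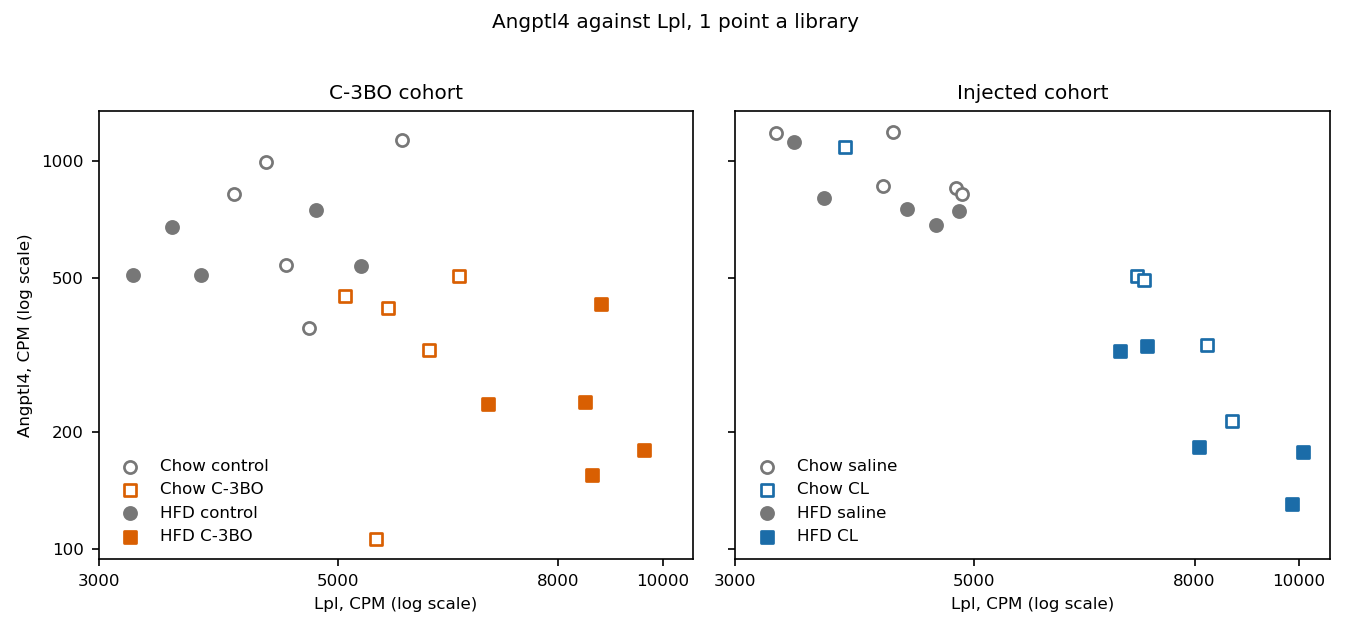
CPM of *Angptl4* against CPM of *Lpl*, both on log axes, with 1 point per library in the C-3BO cohort (left) and the injected cohort (right). In the injected cohort the treated mice lie at the lower right and the saline mice at the upper left, with 1 chow CL mouse (*Lpl* 3797, *Angptl4* 1084 CPM) among the latter.

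By the same measure over all 40 libraries, the genes most like *Lpl* were *Slc25a15* (r = 0.92), *March5* (0.91), *Scp2* (0.91), *4931406C07Rik* (0.90) and *Pgap2* (0.90). *March5* was among the top 5 within either cohort of 20 as well, at 0.93 and 0.95. Of the other members, *Lmf1* had 0.76, *Fabp4* 0.61, *Cd36* 0.37, *Slc27a2* 0.35, *Slc27a1* 0.30, *Fabp5* 0.27, *Fabp3* 0.07, *Gpihbp1* -0.19 and *Angptl4* -0.77.

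*Gpihbp1*, which is made by capillary endothelial cells and not by adipocytes, fell with C-3BO on both diets. Chow C-3BO mice had 68.0, 64.9, 72.7, 63.0 and 58.7 CPM and chow control mice 99.4, 83.6, 76.4, 85.6 and 79.3 CPM, with no overlap (-0.38 ± 0.11, adjusted p = 0.0105). HFD C-3BO mice had 77.8, 83.9, 85.2, 119 and 102 CPM against 130, 155, 129, 111 and 116 CPM in HFD controls (-0.46 ± 0.11, adjusted p = 0.00147), and here 1 C-3BO mouse, replicate 4 with the liver transcripts, reached into the control range.

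With CL on chow *Gpihbp1* fell from 73.9 to 88.9 CPM to 50.4 to 72.2 CPM (-0.33 ± 0.11, adjusted p = 0.0424), a call that was lost without chow saline replicate 2, 3 or 4 or chow CL replicate 1, 3 or 4, with *Gpihbp1* adjusted p between 0.0559 and 0.148 and log2 fold changes from -0.34 to -0.25. It was also lost with only the 2 groups in the fit (-0.35, adjusted p = 0.0523). With CL on HFD, *Gpihbp1* had 94.5 to 141 CPM in saline and 99.8 to 134 CPM in CL mice (0.04, 95% confidence interval -0.19 to 0.27, adjusted p = 0.852). On HFD the effect of C-3BO less that of CL was -0.50 (adjusted p = 0.106), and *Gpihbp1* passed there at -0.68 without HFD C-3BO replicates 4 and 5 (adjusted p = 0.0326).

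Endothelial markers moved with C-3BO as well: 4 of 8 (*Pecam1*, *Cdh5*, *Esam*, *Cldn5*) fell on chow and 6 of 8 on HFD, and 2 of 8 rose with CL on HFD. On chow the sum of the 8 was 996 to 1318 CPM in CL mice and 1070 to 1316 CPM in saline mice. In the bulk tissue, fewer endothelial cells and less *Gpihbp1* per cell cannot be told apart. As a share of the summed CPM of the 8 markers, *Gpihbp1* was 6.95% ± 0.87 (SD, n = 5) in chow control and 7.16% ± 3.04 in chow C-3BO mice, and on HFD 6.26% ± 0.25 in control and 6.09% ± 1.33 in C-3BO mice. The log2 differences of this share with C-3BO were -0.03 on chow and -0.06 on HFD (exact permutation p = 0.937 and 0.706). Chow C-3BO replicate 3 had 12.5%, and the medians were 7.16% in chow control and 6.02% in chow C-3BO mice. On HFD the share was 4.90, 5.04 and 5.75% in C-3BO replicates 1, 2 and 3. It was 8.13 and 6.64% in replicates 4 and 5, the libraries with liver transcripts, and 5.84 to 6.45% in HFD controls. It was 6.84% ± 0.81 in chow saline and 5.40% ± 0.46 in chow CL mice, a log2 difference of -0.34 (exact two-sided permutation test, p = 0.00794, the smallest that 5 against 5 can give; 0.0635 after adjustment over the 8 comparisons of this share). On HFD it was 7.55% ± 0.95 in saline and 6.41% ± 0.63 in CL mice (-0.23, exact permutation p = 0.0556, adjusted 0.148).

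The fatty acid transporter genes parted by treatment. *Slc27a1*, which encodes the insulin-responsive FATP1, rose with C-3BO on chow: 1173, 637, 693, 641 and 478 CPM against 340, 266, 262, 329 and 314 CPM in controls, with no overlap (1.26 ± 0.22, 2.40-fold, adjusted p = 3.03e-05). On HFD it was 481, 739, 508, 350 and 428 CPM against 266, 286, 493, 353 and 366 CPM, and 0.51 ± 0.22 did not pass (adjusted p = 0.0645). Without HFD C-3BO replicates 4 and 5, the libraries with liver transcripts, *Slc27a1* on HFD passed at 0.71 (adjusted p = 0.0269), and it also passed without HFD control replicate 3 (0.65, adjusted p = 0.0239). Between the diets the C-3BO effect differed by -0.75, HFD minus chow, (95% confidence interval -1.37 to -0.14, adjusted p = 0.206).

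*Slc27a2*, whose product also activates very long chain fatty acids, rose with C-3BO on both diets. HFD C-3BO mice had 428, 754, 435, 330 and 371 CPM and HFD control mice 156, 167, 358, 191 and 191 CPM (1.13 ± 0.24, 2.18-fold, adjusted p = 2.72e-04). A single control mouse, replicate 3 at 358 CPM, reached into the C-3BO range. On chow, C-3BO mice had 669, 269, 375, 457 and 264 CPM and control mice 266, 241, 205, 274 and 194 CPM, with overlap (0.78 ± 0.23, adjusted p = 0.00974), and without chow C-3BO replicate 1 the change was 0.53 and no longer passed (adjusted p = 0.0770).

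With CL neither transporter gene passed on either diet. *Slc27a1* had 331 to 842 CPM in chow CL and 408 to 829 CPM in chow saline mice (0.05, 95% confidence interval -0.38 to 0.49), and without chow CL replicate 3, the highest at 842 CPM, the log2 fold change of *Slc27a1* was -0.17. *Slc27a2* had 143 to 287 CPM against 201 to 372 CPM (-0.47, -0.94 to 0.01). Tested directly on chow, the C-3BO effect exceeded the CL effect by 1.21 ± 0.31 for *Slc27a1* (adjusted p = 0.0130) and by 1.25 ± 0.33 for *Slc27a2* (adjusted p = 0.0180), where 6.24% of all genes passed. The chow controls of the cohorts were unlike for *Slc27a1*, with 262 to 340 CPM in uninjected controls and 408 to 829 CPM in saline mice. Chow C-3BO mice (478 to 1173 CPM) overlapped chow CL mice (331 to 842 CPM). The part of the unlike controls in this difference was not tested. The *Slc27a2* difference was 1.00 and did not pass without chow C-3BO replicate 1 (adjusted p = 0.0564). On HFD the same differences were 0.42 (95% confidence interval -0.20 to 1.04) and 0.82 (0.14 to 1.495), and they did not pass.

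*Cd36*, the main long-chain fatty acid translocase of the adipocyte membrane, was the steadiest member under treatment. Chow C-3BO mice had 2067 to 2402 CPM and control mice 1821 to 2091 CPM, a log2 fold change of 0.18 (95% confidence interval -0.01 to 0.38). The intervals were -0.16 to 0.23 for C-3BO on HFD, -0.18 to 0.21 for CL on chow and -0.21 to 0.18 for CL on HFD.

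**Figure D4:**
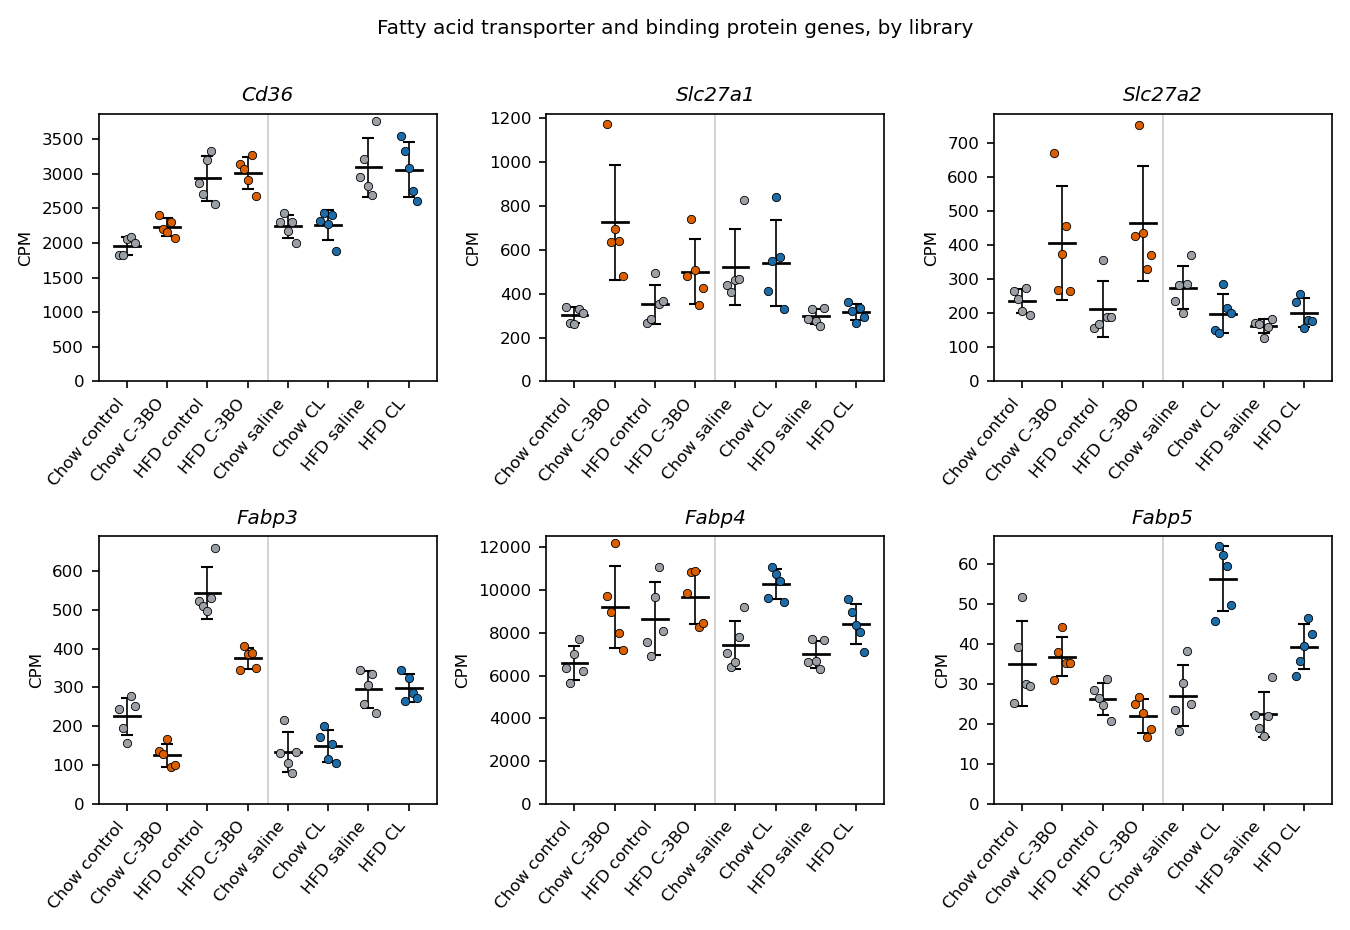
CPM of the transporter genes (*Cd36*, *Slc27a1*, *Slc27a2*) and the binding protein genes (*Fabp3*, *Fabp4*, *Fabp5*) in each of the 40 libraries, with group mean and SD. *Cd36* and *Fabp3* are higher in the HFD groups of either cohort, *Slc27a1* is high in chow C-3BO mice (478 to 1173 CPM), and *Fabp5* is high in chow CL mice (45.7 to 64.4 CPM).

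The 3 binding protein genes each behaved differently. *Fabp3*, the form typical of heart and skeletal muscle that brown fat also makes, fell with C-3BO. HFD C-3BO mice had 345, 408, 386, 387 and 350 CPM and HFD control mice 521, 510, 496, 531 and 659 CPM, without overlap (-0.53 ± 0.18, adjusted p = 0.0219). The call on HFD was lost without HFD control replicate 5 (-0.45, adjusted p = 0.0672) and without HFD C-3BO replicates 4 and 5 (-0.52, adjusted p = 0.0816). On chow the values were 135, 130, 169, 96.5 and 99.5 CPM against 245, 196, 157, 277 and 252 CPM, with an overlap of 1 mouse per group (-0.84 ± 0.19, 1.79-fold lower, adjusted p = 6.53e-04).

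With CL, *Fabp3* had 104 to 201 CPM against 80.2 to 216 CPM on chow and 264 to 346 CPM against 234 to 344 CPM on HFD, and neither passed. On chow the C-3BO effect lay below the CL effect (-1.0 ± 0.26, adjusted p = 0.0172), a difference of *Fabp3* that did not pass when only the 4 groups were fitted (-0.98, adjusted p = 0.0852). Mean *Fabp3* on chow was 226 CPM in uninjected controls, 134 CPM in saline mice and 126 CPM in C-3BO mice. The part of the unlike controls in this difference was not tested. Skeletal muscle markers were present in chow libraries: their summed level over 8 genes was 643 to 8209 CPM in chow control and 341 to 3212 CPM in chow C-3BO mice, and 1 of the 8 fell with C-3BO. On HFD the sum was 5.54 to 188 CPM in control and 37.9 to 156 CPM in C-3BO mice, and 1 of 8 rose. With CL on chow, 6 of 8 fell (median log2 fold change of the 8 -4.02), and the sum was 10.4 to 2115 CPM in saline and 15.02 to 135 CPM in CL mice. On HFD, 1 of 8 rose with CL, and the sum was 19.05 to 1764 CPM in saline and 86.1 to 621 CPM in CL mice. The part of muscle in the *Fabp3* and *Slc27a1* values, and in their C-3BO and CL differences on chow, was not tested.

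*Fabp4*, the adipocyte binding protein, rose moderately on chow. C-3BO mice had 7186 to 12184 CPM and control mice 5681 to 7737 CPM (0.48 ± 0.13, 1.40-fold, adjusted p = 0.00460), with overlap, and the call was lost with library totals (0.27, adjusted p = 0.0543). CL mice on chow had 9450 to 11093 CPM, all above saline mice at 6413 to 9215 CPM (0.47 ± 0.13, 1.38-fold, adjusted p = 0.0119). On HFD *Fabp4* did not pass with C-3BO (0.16, 95% confidence interval -0.11 to 0.42) or CL (0.27, 0.00 to 0.53).

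*Fabp5*, the epidermal form, which macrophages also make, rose with CL on both diets and did not pass with C-3BO. Chow CL mice had 45.7, 64.4, 62.1, 59.4 and 49.5 CPM and chow saline mice 23.4, 18.3, 30.1, 38.2 and 25.1 CPM, with no overlap (1.05 ± 0.17, 2.08-fold, adjusted p = 4.82e-05). HFD CL mice had 31.9, 35.8, 39.5, 46.5 and 42.5 CPM against 22.2, 19.05, 17.1, 22.1 and 31.8 CPM, also apart (0.81 ± 0.19, 1.75-fold, adjusted p = 0.00171). Replicate 5 of chow CL mice, whose *Lpl* and *Angptl4* were in the saline range, had *Fabp5* (49.5 CPM) and *Fabp4* (9450 CPM) above every chow saline mouse.

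C-3BO mice had *Fabp5* at 31.0 to 44.2 CPM against 25.1 to 51.6 CPM on chow (0.07, 95% confidence interval -0.28 to 0.43) and at 16.7 to 26.6 CPM against 20.6 to 31.3 CPM on HFD (-0.25, -0.62 to 0.11). The HFD value of *Fabp5* passed when scaled by library totals alone (-0.41, adjusted p = 0.0493). The C-3BO effect was below the CL effect by 0.98 ± 0.25 on chow (adjusted p = 0.0124) and by 1.06 ± 0.26 on HFD (adjusted p = 0.0251). It was the 1 member to pass on HFD, where 1.8% of all genes did. The HFD difference of *Fabp5* was -0.90 without HFD C-3BO replicates 4 and 5 (adjusted p = 0.132) and did not pass when HFD C-3BO replicate 4 or 5, HFD saline replicate 2 or 3 or HFD CL replicate 4 was left out alone, with adjusted p from 0.0501 to 0.0596 and values from -1.01 to -0.96. Of the 8 macrophage markers, 2 (*Cd68*, *Csf1r*) fell with CL on HFD, where 10.8% of all genes fell. The median log2 fold change of the 8 was -0.89. On HFD the sum of the 8 was 325 to 796 CPM in saline and 137 to 409 CPM in CL mice. On chow it was 150 to 312 CPM in saline and 123 to 391 CPM in CL mice. With HFD against chow in saline mice, 7 of the 8 rose (median 1.14), where 7.45% of all genes rose. The part of macrophages in the *Fabp5* values was not tested.

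No member passed the test of whether a treatment effect differed between the diets in edgeR. For C-3BO this difference also holds the higher *Gpr3* level of C-3BO mice on HFD. For C-3BO, 2 members had an unadjusted p under 0.05 (*Lpl* and *Slc27a1*) and 1 passed in DESeq2 (*Lpl*), and 2.09% of all genes passed in edgeR. For CL, 2 had an unadjusted p under 0.05 (*Gpihbp1*, difference 0.37 with 95% confidence interval 0.04 to 0.69, and *Slc27a2*, 0.77 with 0.10 to 1.45), 0 passed in DESeq2, and 0.0151% of all genes passed in edgeR.

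The second set of comparisons was HFD against chow within each arm. In control mice 4 members passed and each was higher on HFD, while 15.4% of all genes rose and 17.5% fell. In C-3BO mice 4 rose and 1 fell, beside 13.5% and 12.2% of all genes. In saline mice 3 rose and 2 fell (7.45% and 8.04%), and in CL mice 3 rose and 3 fell (10.9% and 12.7%). *Fabp3*, *Gpihbp1* and *Cd36* rose in each of the 4 arms. The saline and CL arms rest on HFD libraries that all held liver and epididymal transcripts and are shallower than their chow libraries, while none of the 10 control libraries of the C-3BO cohort held them.

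**Figure D5:**
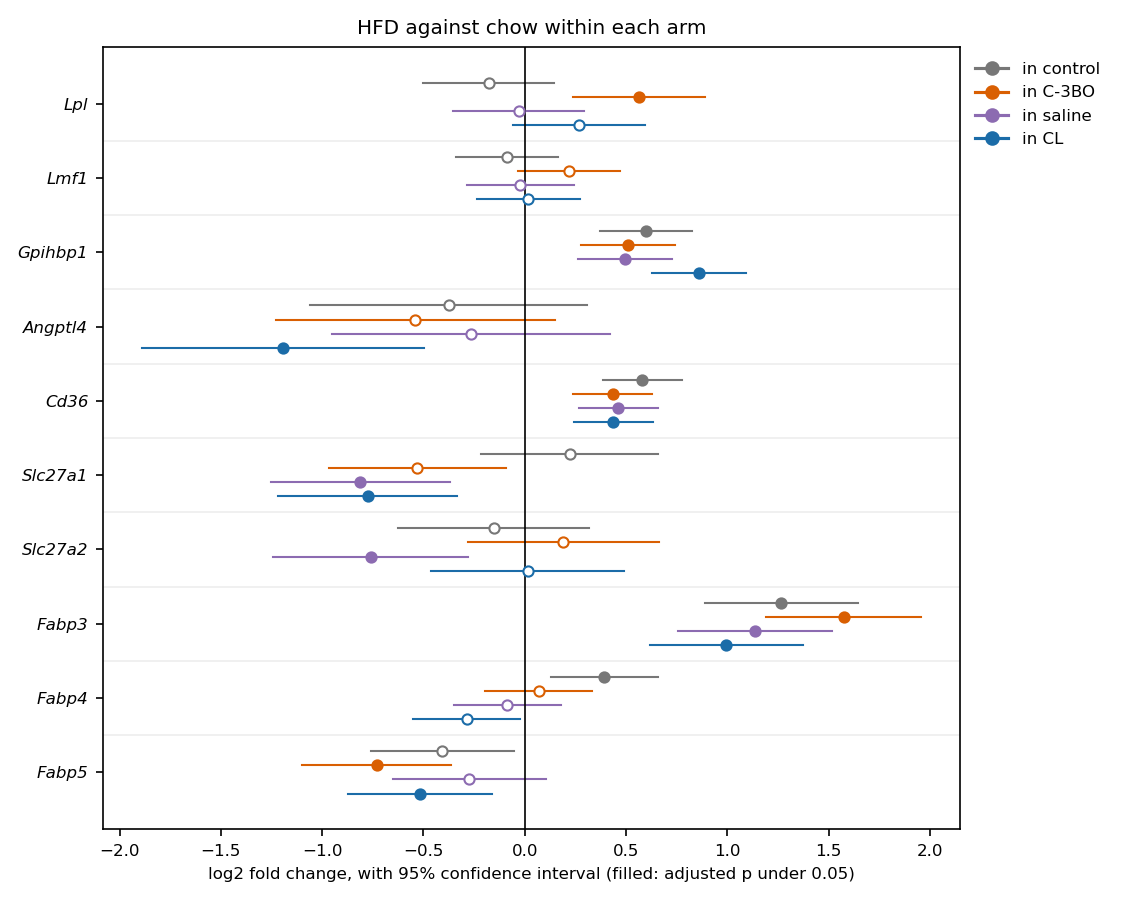
Log2 fold change of each member for HFD against chow, with its 95% confidence interval, within control, C-3BO, saline and CL mice; filled points passed the test over all genes. *Gpihbp1*, *Cd36* and *Fabp3* lie to the right of 0 in all 4 arms, with *Fabp3* the farthest of these 3 (1.00 to 1.57).

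*Fabp3* had the largest log2 fold change with the diet in control, C-3BO and saline mice, and in CL mice *Angptl4* moved farther (-1.19). Control mice went from 157 to 277 CPM on chow to 496 to 659 CPM on HFD (1.27 ± 0.19, 2.41-fold, adjusted p = 1.95e-06), and C-3BO mice from 96.5 to 169 CPM to 345 to 408 CPM (1.57 ± 0.19, 2.98-fold, adjusted p = 1.33e-07). In saline mice it went from 80.2 to 216 CPM to 234 to 344 CPM (1.14 ± 0.19) and in CL mice from 104 to 201 CPM to 264 to 346 CPM (1.00 ± 0.19). No arm showed overlap between the diets. Of the 8 muscle markers, 8 fell in control mice and 7 in C-3BO mice (median log2 fold changes -6.73 and -5.85). In saline mice the median was -0.88, and in CL mice it was 1.94 and 1 of the 8 rose. Their part in the *Fabp3* values was not tested.

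*Cd36* rose by 0.58 ± 0.10 in control mice (1821 to 2091 CPM on chow, 2571 to 3324 CPM on HFD, adjusted p = 1.25e-05). The rises in the other arms were 0.43 ± 0.10 in C-3BO, 0.46 ± 0.10 in saline and 0.44 ± 0.10 in CL mice, with adjusted p between 9.14e-04 and 0.00111. The 20 HFD libraries, from 2571 CPM upward, all lay above the 20 chow libraries, which reached 2439 CPM.

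*Gpihbp1* rose by 0.60 ± 0.11 in control mice (76.4 to 99.4 CPM on chow, 111 to 155 CPM on HFD, adjusted p = 6.99e-05), 0.51 ± 0.11 in C-3BO mice, 0.50 ± 0.11 in saline mice and 0.86 ± 0.11 in CL mice (adjusted p = 1.43e-06). In C-3BO mice without replicates 4 and 5 on HFD it was 0.33 for *Gpihbp1* and did not pass (adjusted p = 0.0528). Endothelial markers rose with it: 7 of 8 in control, C-3BO and CL mice and 3 of 8 in saline mice. The share of *Gpihbp1* in the summed endothelial markers was 6.26% on HFD against 6.95% on chow in control mice (log2 difference -0.14, exact permutation p = 0.135). The log2 difference of this share was -0.18 in C-3BO mice (exact permutation p = 0.611), 0.14 in saline mice (exact permutation p = 0.198) and 0.25 in CL mice (exact permutation p = 0.0238, 0.0952 after adjustment over the 8 comparisons).

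The other diet changes passed in some arms and not in others, and how they differ between arms was tested only as the difference in treatment effects between diets given above. *Lpl* rose in C-3BO mice (0.57 ± 0.16, 1.48-fold, adjusted p = 0.00833) without overlap and had -0.18, -0.03 and 0.27 in control, saline and CL mice. *Angptl4* fell in CL mice (-1.19 ± 0.34, adjusted p = 0.00989), but without chow CL replicate 5 the fall was -0.75 and did not pass (adjusted p = 0.0977). *Fabp5* fell in C-3BO mice (-0.73 ± 0.18, adjusted p = 0.00268) and in CL mice (-0.52 ± 0.18, adjusted p = 0.0280); the first was lost without HFD C-3BO replicates 4 and 5 (-0.57, adjusted p = 0.0512), and the second with library totals (-0.34, adjusted p = 0.121) and without chow CL replicate 2, 3 or 4 or HFD CL replicate 1 or 2, with adjusted p from 0.0525 to 0.0820.

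*Slc27a1* fell with HFD in saline mice (-0.81 ± 0.22, adjusted p = 0.00936) and in CL mice (-0.78 ± 0.22, adjusted p = 0.00794), and *Slc27a2* in saline mice (-0.76 ± 0.24, adjusted p = 0.0252). In control mice *Slc27a1* had 0.22 (95% confidence interval -0.21 to 0.66) and in C-3BO mice -0.53 (adjusted p = 0.0659), and neither passed. The C-3BO value passed without chow C-3BO replicate 5 (-0.65, adjusted p = 0.0290) or HFD C-3BO replicate 2 (-0.74, adjusted p = 0.0148). *Slc27a2* had -0.15, 0.19 and 0.01 in control, C-3BO and CL mice. Chow saline replicate 5, with 829 CPM of *Slc27a1* and 372 CPM of *Slc27a2*, decided both calls in saline mice, which became -0.58 (adjusted p = 0.0608) for *Slc27a1* and -0.63 (adjusted p = 0.0840) for *Slc27a2* without it. The *Slc27a2* call was lost too with library totals (-0.58, adjusted p = 0.0767) and without HFD saline replicate 3 (-0.68, adjusted p = 0.0679), and the *Slc27a1* call in CL mice without chow CL replicate 3 (-0.56, adjusted p = 0.0548). *Fabp4* rose in control mice (0.39 ± 0.13, adjusted p = 0.0181), with loss of the call without chow control replicate 2 or HFD control replicate 3 or 4 (0.28 to 0.35, adjusted p from 0.0511 to 0.0878) and with only the 2 groups fitted (0.40, adjusted p = 0.0641).

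Beyond the members, 41 further genes of lipoprotein handling and fatty acid transport were listed by function, of which 31 were tested. This list too was made with earlier results of these data known. With C-3BO 4 of the 31 rose and 8 fell on chow, and 10 rose and 10 fell on HFD, where 15.8% and 15.9%, and 19.3% and 15.5%, of all tested genes did. The 10 that rose on HFD include *Fabp1* and *Apoa5*, whose counts lay almost all in HFD C-3BO replicates 4 and 5, as given below. A count without these libraries was not made. With CL 2 rose and 7 fell on chow and 4 rose and 6 fell on HFD, beside 9.16% and 6.13%, and 12.7% and 10.8%, of all genes. The 3 with the largest changes on chow with C-3BO were *Got2*, a mitochondrial aminotransferase also described as a membrane fatty acid binding protein (-2.24 ± 0.22), *Apoe*, an apolipoprotein of remnant particles (-1.66 ± 0.19), and *Scp2*, a peroxisomal lipid carrier (0.82 ± 0.13). With CL they were *Apoe* (-1.75 ± 0.19), *Apoc1*, another apolipoprotein (0.93 ± 0.18), and *Got2* (-0.86 ± 0.21) on chow, and *Apoe* (-1.80 ± 0.19), *Got2* (-1.72 ± 0.24) and *Apoc1* (1.44 ± 0.19) on HFD. In each of these the groups did not overlap.

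With C-3BO on HFD the 3 were *Fabp1* and *Apoa5*, both made by the liver, and *Mfsd2a*, a transporter of lysophospholipids with long-chain fatty acids. *Fabp1* had 39 and 25 counts and *Apoa5* 32 and 30 counts in HFD C-3BO replicates 4 and 5, the libraries with *Alb*, and no more than 2 counts in any other library of the 2 groups. *Mfsd2a* had 9, 29, 23, 27 and 15 counts (1.22 to 5.50 CPM) in the HFD C-3BO libraries and 2 counts in the 5 HFD control libraries combined, a ratio of 92.8 with an exact counting interval (95%) of 25.1 to 777. *Lmf2*, a relative of *Lmf1* named here after its values were seen, fell in all 4 treatment comparisons, with log2 fold changes of -0.58 ± 0.10 and -0.37 ± 0.10 with C-3BO on chow and HFD, and of -0.29 ± 0.10 and -0.33 ± 0.10 with CL (adjusted p from 2.81e-05 to 0.0397).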

How the data were processed

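Poly(A) RNA of BAT from 40 mice was made into TruSeq libraries for a HiSeq 1500. Per the study's methods, alignment used STAR against mm9 and tag directories came from HOMER. The authors then deposited raw exon counts per RefSeq gene, made with iRNA-seq. Versions are not given in the sources used here. Groups came from the sample labels, and 0 columns of other samples were set aside. Genes were kept with filterByExpr (minimum count 10) in edgeR 4.0.16 (R 4.3.3, limma 3.58.1), and a model with a mean for each group over all 40 libraries, TMM factors and the quasi-likelihood test was used. The standard error is the log2 fold change divided by the square root of F. P-values measure the spread between libraries of different mice, and no 2 libraries of a group agreed within sampling noise. Totals of 849126 to 15260516 counts set the precision, and counting intervals cover counting error only.

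Named genes were the 10 members, the 3 further pathway genes per treatment comparison with the largest change among those that passed, and the 5 genes most correlated with *Lpl* (log2 CPM, prior count 2). The members and gene lists were chosen with earlier results of these data known. Alternatives were library totals, RLE factors, no filter, at least 10 counts in every library, the compared groups alone, DESeq2 1.42.0, the replicate number as a block, HFD C-3BO replicates 4 and 5 left out, and each library left out in turn. The steps were tested on simulated counts. Python 3.11.15, scipy 1.17.1 and matplotlib 3.10.9 were used for ratios, promoter windows and figures. Other measurements of the study were not analysed here.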

Additional observations from a re-analysis of the deposited data

Results flagged for a closer look

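Among 80 sets of 5 libraries (10 members in 8 groups), 6 held a mouse whose gap to its nearest neighbour took more than 0.71 of the group's range, and chance gives about 1 in 20. *Slc27a1* in chow saline replicate 5 was at 829 CPM against 408 to 465 CPM in the other 4. *Slc27a2* in HFD control replicate 3 was at 358 CPM against 156 to 191 CPM, and in HFD C-3BO replicate 2 at 754 CPM against 330 to 435 CPM. *Fabp3* in HFD control replicate 5 was at 659 CPM against 496 to 531 CPM. *Angptl4* in HFD saline replicate 4, the library with 849126 counts, was at 1119 CPM against 685 to 800 CPM. *Cd36* in chow CL replicate 5 was the lowest at 1891 CPM against 2278 to 2434 CPM.

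Of 40 tests of a difference between effects, 5 passed in edgeR after adjustment over all genes. On chow the effect of C-3BO less that of CL was 1.21 for *Slc27a1*, 1.25 for *Slc27a2*, -1.0 for *Fabp3* and -0.98 for *Fabp5*, and on HFD it was -1.06 for *Fabp5*. The C-3BO and injected mice were separate cohorts with their own controls, so these differences also hold any difference between the cohorts.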

How the results depend on the processing

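Of 120 member effects, 45 passed, 28 of these did so under every alternative, and 0 of the 45 changed sign. Of the 75 that did not pass, 13 passed under some alternative. For the diet dependence of the C-3BO effect, 1 member (*Lpl*) passed with library totals and with DESeq2, and 0 to 1 with a library left out (1 without HFD control replicate 4). For HFD against chow in C-3BO mice, 3 members passed without HFD C-3BO replicates 4 and 5. For HFD against chow in saline mice the count was 3 to 5 with a library left out (3 without chow saline replicate 5), and for the C-3BO minus the CL effect on HFD it was 0 to 1 (0 without HFD C-3BO replicate 5, HFD saline replicate 2 or HFD CL replicate 4). Library totals moved the median of all genes by -0.20 to -0.14 in the C-3BO and CL comparisons and by 0.15 to 0.18 in the diet comparisons. The share of passing genes that were higher went from 49.8, 55.3, 59.9 and 54.0% to 20.2, 30.1, 26.6 and 27.9% (C-3BO on chow and HFD, CL on chow and HFD), and from 46.8, 52.6, 48.1 and 46.1% to 71.3, 81.7, 84.7 and 79.7% (diet in control, C-3BO, saline and CL mice).

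Sign changes were seen only among effects that did not pass. With library totals, the log2 fold changes were -0.013 for *Cd36* and -0.12 for *Fabp5* with C-3BO on chow, -0.13 for *Cd36* and -0.0014 for *Fabp4* with C-3BO on HFD, -0.14 for *Cd36*, -0.084 for *Slc27a1* and -0.017 for *Fabp3* with CL on chow, and -0.11 for *Gpihbp1*, -0.061 for *Slc27a1* and -0.13 for *Fabp3* with CL on HFD. The same scaling gave 0.052 for *Lmf1* with the diet in control mice, 0.14 for *Lpl*, 0.15 for *Lmf1* and 0.098 for *Fabp4* with the diet in saline mice, and -0.060 for *Fabp4* in the C-3BO minus the CL effect on chow. *Cd36* with CL on chow was -0.0049 with RLE factors and with DESeq2, -0.014 without a filter, -0.0084 where each library needed 10 or more counts and -0.0056 with the compared groups alone. *Fabp4* in the C-3BO minus the CL effect on HFD was 0.013 without HFD C-3BO replicates 4 and 5.

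With 1 library left out, the ranges that crossed 0 were as follows. With C-3BO, *Fabp5* ran from -0.027 to 0.25 on chow, *Cd36* from -0.0035 to 0.088 on HFD, and *Angptl4* from -0.47 to 0.0087 in the difference between diets. With CL, *Cd36* ran from -0.027 to 0.070 and *Slc27a1* from -0.17 to 0.28 on chow, *Gpihbp1* from -0.019 to 0.13, *Cd36* from -0.072 to 0.074 and *Fabp3* from -0.048 to 0.092 on HFD, and *Lmf1* from -0.093 to 0.14, *Cd36* from -0.084 to 0.072 and *Slc27a1* from -0.20 to 0.25 in the difference between diets. In the C-3BO minus the CL effect, *Lmf1* ran from -0.19 to 0.053, *Gpihbp1* from -0.13 to 0.017, *Angptl4* from -0.40 to 0.25 and *Fabp4* from -0.076 to 0.10 on chow, and *Lpl* from -0.049 to 0.13 and *Cd36* from -0.039 to 0.11 on HFD. With the diet, *Slc27a2* ran from -0.079 to 0.44 and *Fabp4* from -0.0084 to 0.16 in C-3BO mice, *Lpl* from -0.10 to 0.040, *Lmf1* from -0.097 to 0.11 and *Fabp4* from -0.13 to 0.0035 in saline mice, and *Lmf1* from -0.058 to 0.079 and *Slc27a2* from -0.091 to 0.18 in CL mice.

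The labels do not say whether the replicate numbers pair mice. With C-3BO on chow the deviations of mice with the same number correlated at 0.44, 0.066, 0.21, -0.037 and 0.18. Replicates 1, 3 and 5 correlated best with their own number there, and replicates 1, 4 and 5 with C-3BO on HFD. With CL only replicate 1 on chow and replicate 2 on HFD did so. In no comparison did every sample correlate best with its own number, and these values do not decide whether mice were paired. The replicate number as a block was a shift shared by all 8 groups, so pairs within a cohort were not tested. With this block the counts of members that passed were the same in all 12 comparisons. On chow with CL, however, *Lmf1* passed (0.35, adjusted p = 0.0479) and *Gpihbp1* did not (-0.33, adjusted p = 0.0537). Depth limits *Fabp5* and *Lmf1* most, with 22 and 47 counts in the shallowest library.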

Other observations

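The makeup of the binding protein transcripts, by RPKM, moved with the diet and with C-3BO. *Fabp4* made up the bulk of the 3 in every group. *Fabp3* was 3.32% ± 0.67 of their sum (SD, n = 5) in chow control mice and 1.34% ± 0.089 in chow C-3BO mice, and on HFD 6.05% ± 1.29 in control and 3.77% ± 0.45 in C-3BO mice. With injection the share was 1.82% ± 0.85 with saline and 1.43% ± 0.35 with CL on chow, and 4.10% ± 0.95 with saline and 3.43% ± 0.35 with CL on HFD. These shares are descriptions without a test, and they follow from the levels of the 3 genes already given.

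Chow CL replicate 5 was mixed with respect to its label. Its *Lpl*, *Lmf1*, *Angptl4*, *Fabp3* and *Ucp1* were inside the ranges of chow saline mice, its *Gpihbp1*, *Slc27a2* and *Fabp5* inside those of the other 4 chow CL mice, its *Fabp4* above all saline and below all other CL mice, and its *Cd36* and *Slc27a1* below both.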
